A study of Zea mays with 56 samples.

Results

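Of the 2253850 Mu insertion sites in the deposited tables, 1081 (0.0480%) lay on 99 sequences named scaffold followed by a number, and the rest lay on 10 sequences named chr1 to chr10. The scaffold sites were taken as every site whose identifier does not start with chr, a rule that uses position only and none of the counts. All 1081 sites spanned 9 bp from the left to the right border. They were few, mostly weakly read and unevenly placed. A single sequence, scaffold107, held 592 of them, and 3073 of 53374223 undiluted counts (0.00576%) fell on scaffolds.

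Mu elements are DNA transposons of maize that move by inserting a copy at a new position, where a short stretch of target DNA is duplicated on both sides of the element. They insert preferentially near the 5′ ends of genes and in open chromatin, and transposition in somatic cells gives insertions that only some cells of a tissue carry. An assembly keeps as unplaced scaffolds those sequences that could not be assigned to a chromosome position, so an insertion there has coordinates within the scaffold but no place on the genetic map.

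MuSeq2 amplifies and reads the junction between a Mu end and the adjoining genomic DNA, and a left-border and a right-border count were deposited for each site. The tables hold 56 libraries, of which 50 are undiluted and 6 hold Mu-active leaf DNA mixed into Mu-inactive leaf DNA. The Mu-active plants (genotype label W22 MuActive) descend from a Mu-active father and a Mu-inactive mother, both W22 inbreds, and the mother's line gave the 3 Mu-inactive plants (W22 Mu-Inactive). Each of the 17 Mu-active plants gave a chip of its endosperm, and its seedling or adult plant gave leaf at the V2 stage, primary root or mature pollen. Undiluted Mu-active libraries number 15 for endosperm (15 plants), 8 for leaf (6 plants), 6 for root (6 plants) and 15 for pollen (14 plants). A further 4 are from Mu-inactive leaf. The endosperms of plants 61 and 74 form a separate group of 2, since their genotype labels name B73 MuKiller beside W22 MuActive. Family ND58 gave 15 of the plants and family ND67 gave 2. Mu-active plants were started in vermiculite and Mu-inactive plants in soil, and leaf and root DNA came from a kit but endosperm and pollen DNA from a CTAB method, so growth medium and Mu activity cannot be told apart here, nor can extraction method and tissue outside the leaf-root and endosperm-pollen pairs. The labels of 3 libraries name 2 different plants or families (the second leaf 75 library, pollen 69 and pollen 99). These were placed by library name, and the placement was not tested.

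Pollen libraries were the shallowest, with totals between 7119 and 745604 counts. Totals lay between 45730 and 3222143 for endosperm, 606090 and 1881017 for leaf, and 604168 and 3650060 for root. Mu-inactive leaf libraries held between 1646591 and 2511743. These totals are dominated by a few sites. At the 28 sites used as a depth reference, which had at least 10 counts in all 50 undiluted libraries, the median count of a library ran from 69 to 80688, and 43 libraries reached 1000. None of those 28 sites lay on a scaffold. A site's count divided by that median is called its relative abundance below.

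The scaffold sites were of low abundance. Of the 1024 read in undiluted libraries, 652 (63.7%) had a single count over all of them, against 52.4% of chromosome sites, and 51 (4.98%) had 10 or more counts, against 7.29%. The highest total was 149 among the 1024 scaffold sites and 1522802 among the far more numerous 2156878 chromosome sites. No scaffold site reached a relative abundance of 0.1 in any undiluted library, a level that 673 of the 2156878 chromosome sites reached. That share is so small that none among 1024 sites does not set the scaffolds apart. The largest relative abundance on a scaffold was 0.0145, or 0.0101 in libraries whose reference level was at least 1000. A further 57 scaffold sites were read in diluted libraries only.

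Sites were concentrated on a handful of scaffolds. Scaffold107 carried 592 sites (54.8%), scaffold112 carried 98, scaffold73 carried 57, scaffold282 carried 39, scaffold208 carried 29, scaffold15 carried 28 and scaffold265 carried 19. These 7 scaffolds held 862 sites. Of the other 92 scaffolds, 53 had 2 to 8 sites and 39 had 1 site.

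**Figure D1:**
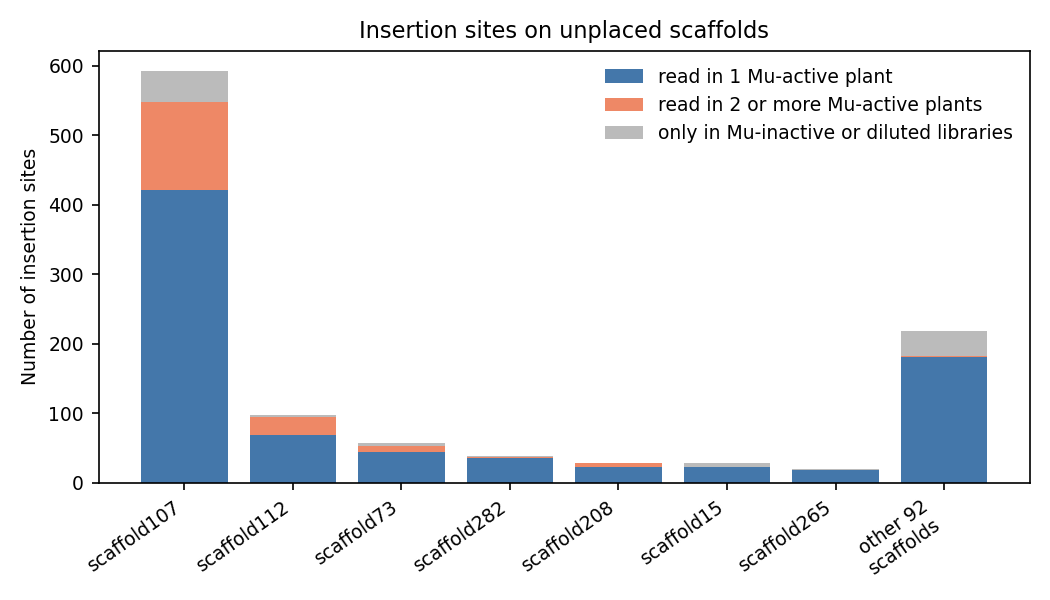
Number of insertion sites (vertical axis) on each of the 7 scaffolds with at least 10 sites and on the other 92 together, split by whether a site was read in 1 Mu-active plant, in 2 or more, or only in Mu-inactive or diluted libraries. The scaffold107 bar reaches 592 sites, and nearly all of the orange share, sites read in 2 or more plants, lies on scaffold107, scaffold112 and scaffold73.

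Scaffold107 sites ran from position 27999 to 1196370 of that sequence, in the coordinates of the deposited files. It held 548 of the 982 scaffold sites read in Mu-active plants and 1943 of their 3024 counts (64.3%), and every one of the 17 plants had a site on it. Up to its last site it carried 458 Mu-active sites per Mb. Chromosome windows of 1 Mb held a median of 803 sites (5th to 95th percentile 161 to 2626, 2117 windows), and 27.4% of the windows held fewer than 458, so scaffold107 lay within the range of the chromosome windows. Scaffold15 had 9.24 sites per Mb over 2381863 bp, and 0.0472% of chromosome windows held fewer. Scaffold265 had 33.8 sites per Mb, and 0.142% of windows held fewer. Scaffold lengths are not in the tables, so density was computed up to the last site of a scaffold.

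Within scaffolds the sites formed dense clusters. Taking runs of at least 10 sites in which each lies within 1000 bp of the next, 16 clusters on 5 scaffolds held 682 of the 1081 sites (63.1%). On scaffold107 there were 12 of them, and 489 sites (82.6%) lay in 16797 bp. Single clusters spanned 298 to 2933 bp, and each held sites from 9 to 17 plants. The largest, at scaffold107:496495-499427, had 103 sites from all 17 plants and 543 Mu-active counts. The whole of scaffold112's yield, 98 sites from 17 plants with 329 Mu-active counts, lay in the 1335 bp of scaffold112:10833-12167. On scaffold73, 52 of 57 sites lay in scaffold73:49524-50560, from 16 plants. Scaffold282 and scaffold208 each had 1 cluster, of 24 and 19 sites with 12 plants each, and scaffold15 and scaffold265 had none.

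The distance from a Mu-active site to its nearest other Mu-active site had a median of 12 bp over the scaffolds, 5 bp on scaffold107, 80 bp on the other scaffolds and 4 bp on the chromosomes. A neighbour within 1000 bp was present for 78.3% of scaffold sites, 92.3% of scaffold107 sites and 97.1% of chromosome sites. No gene annotation of the files' assembly was used here, so none of these clusters is assigned to a gene.

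Recurrence between plants was counted for the 982 scaffold sites read in Mu-active plants. Of these, 168 (17.1%) were read in 2 or more plants, against 24.3% of all sites read in any Mu-active plant, and 26 (2.65%) in 5 or more, against 4.66%. Scaffold107 alone stood at 23.2% (127 of 548), close to the background, and the other scaffolds together at 9.45% (41 of 434). Scaffold112 had 25 recurring sites (26.6%), scaffold73 had 9 of 53, scaffold208 had 5 (17.9%) and scaffold282 had 1 (2.70%). Scaffold15 and scaffold265 had none among 22 and 18 sites, and the 92 scaffolds with fewer than 10 sites had 1 among 182. No scaffold site was read in all 17 plants, which 1331 chromosome sites (0.0620%) were. At a share that small, none among 982 sites does not set the scaffolds apart. No test was made, because a site shared by plants makes the plants dependent.

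Sites of more counts were in more plants. Among sites with 2 counts in all, 26.6% of scaffold and 30.6% of chromosome sites were in 2 or more plants. At 3 to 4 counts the shares were 47.8% and 51.7%, and at 5 to 9 counts they were 64.5% and 67.5%. At 10 to 49 counts they were 68.2% (44 scaffold sites) and 77.3%. Scaffold107 was at 83.9% in that last class (31 sites) and the other scaffolds at 30.8% (13 sites). The pooled scaffold share was the lower one in each of the 4 classes, but scaffold107 was above the chromosomes in 3 of them, with 52.8% at 3 to 4 counts and 72.7% at 5 to 9. The other scaffolds stood at 39.0% and 44.4% there. Of the 168 recurring sites, 51 were read in both families, of which ND67 has only 2 plants. No matching share over the chromosome sites is given here, so 51 cannot be called high or low.

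The 26 sites in 5 or more plants lay on scaffold107, scaffold112 and scaffold73, and 24 of them lay in the clusters. The most widely shared was scaffold107:498703-498711, read in 15 plants with 65 counts. Its endosperm counts ran from 1 to 8 in 14 libraries, its leaf counts from 1 to 4 in 4 libraries, its pollen counts were 17 in plant 106 and 1 in each of 4 other plants, and root had 1 count in plant 63. No library held more than 17 of the 65. The next, scaffold107:1116566-1116574, was in 13 plants with 75 counts, of which endosperm 63 held 24 and each other library 7 or fewer. In 11 plants each, scaffold107:498872-498880 had 63 counts, 38 of them in endosperm 52, and scaffold107:145401-145409 had 43. None of these 4 sites had a count in Mu-inactive leaf.

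Other high totals came from 1 library. The highest, scaffold73:49725-49733, had 149 counts in 6 plants, but 142 were in root 61, where its relative abundance was 0.00544 (95% exact Poisson interval 0.00459 to 0.00642), and the other 5 libraries had 1 to 3 counts. Every one of the 149 was a right-border count. At scaffold107:498330-498338, 121 of 123 counts were in endosperm 65, as 60 left and 61 right, with a relative abundance of 0.00821 (0.00681 to 0.00981). The other 2 counts were in endosperm 63. At scaffold73:50386-50394, 55 of 61 counts were in pollen 85, as 28 left and 27 right, with a relative abundance of 0.00923 (0.00695 to 0.0120). PCR counts are not known to be separate molecules, so these intervals cover counting error only.

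A private site is one read in exactly 1 Mu-active plant and in no Mu-inactive library, and 814 scaffold sites were private. Those with at least 10 counts and both borders in a library numbered 5 in endosperm, 1 in leaf, 2 in root and 4 in pollen. No matching share over the private chromosome sites is given here, so these numbers set neither the scaffolds nor a tissue apart. In endosperm the highest by share of the library were scaffold107:1016236-1016244 in plant 52, with 62 counts (35 left, 27 right; relative abundance 0.00212), and scaffold107:725566-725574 in plant 42, with 12 counts (0.000867). The leaf site was scaffold281:32331-32339 in plant 83, with 11 counts (0.000468). The root sites were scaffold107:725872-725880 in plant 63, with 23 counts (0.000648), and scaffold107:725860-725868 in plant 61, with 24 counts (0.000920). These root sites start 12 bp apart in different plants. In pollen they were scaffold73:50408-50416 in plant 52, with 18 counts (0.00466), and scaffold112:11576-11584 in plant 76, with 14 counts (0.00305). All but the scaffold281 site lie in a cluster.

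Within a plant, private sites on scaffolds reached 2 counts less often than private sites on chromosomes. The share of private sites with at least 2 counts was 26.0% ± 11.8 (SD, n = 17 plants) on scaffolds and 32.1% ± 9.97 on chromosomes of the same plants. The difference was -6.11 ± 8.68 percentage points, lower on scaffolds in 13 of 17 plants (two-sided sign-flip permutation test, p = 0.0117). Without scaffold107 the difference was -10.1 points over the 13 plants with enough sites (permutation p = 0.0200, lower in 11). The gap did not pass with a minimum of 5 counts (-1.27 points, permutation p = 0.334), and at 10 counts the mean turned to 0.278.

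**Figure D2:**
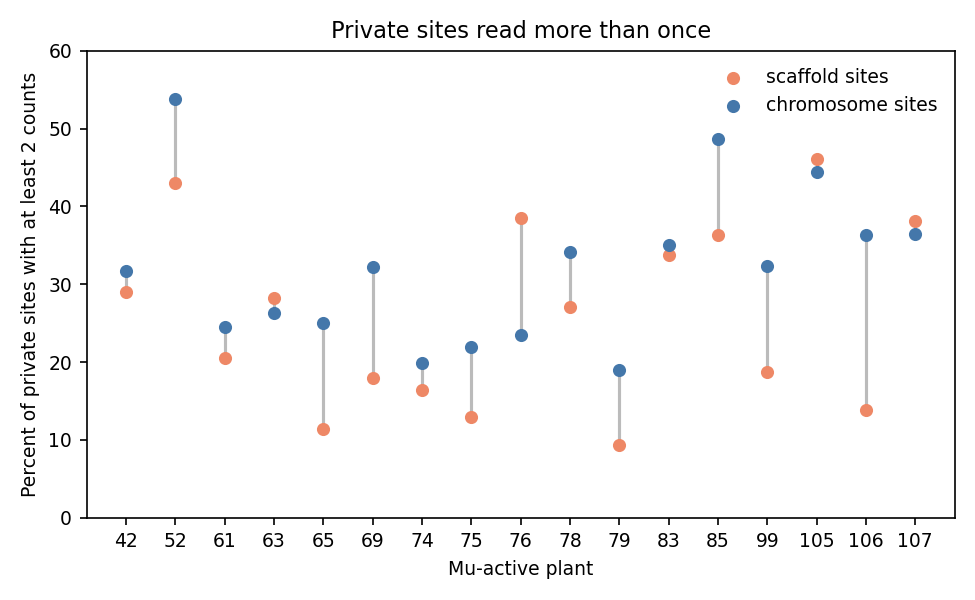
Percent of private sites with at least 2 counts (vertical axis) for scaffold and chromosome sites of each of the 17 Mu-active plants (horizontal axis), joined by a line within a plant. Scaffold points lie below chromosome points in 13 plants and above them in plants 63, 76, 105 and 107.

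Right-border counts outnumbered left-border counts over the scaffolds together, with the largest excesses on scaffold107, at 1 site of scaffold73 and on scaffold112. Over all scaffolds, Mu-active libraries gave 1209 left and 1815 right counts, 40.0% left, against 49.6% on the chromosomes. By plant the left share ran from 28.4% to 52.5% with a median of 38.9% and was under 50% in 16 of 17 plants, where the same plants' chromosome shares ran from 47.5% to 51.5%. Part of this was the single site with 142 right-border counts in root 61. Leaving that site out, a choice made after its value was seen, gave 42.1% left overall and 54.1% in plant 61, and 15 of 17 plants stayed under 50%. Without it the scaffolds other than scaffold107 together moved from 43.5% left (470 left, 611 right) to 50.4% (470 and 462), and scaffold73 moved from 29.6% (100 left, 238 right) to 52.9% left (100 and 89). Scaffold107 was at 38.0% (739 left, 1204 right), scaffold112 at 42.9% (141 and 188), scaffold282 at 50.9% and scaffold208 at 56.4%.

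Sites read at 1 border only were also counted by border. Among sites of at least 2 counts read at 1 border only, 80 were left-only and 138 right-only, and scaffold107 had 38 and 100 of these where the other scaffolds had 42 and 38. Of the 26 sites in 5 or more plants, 21 had under 50% left counts, 7 were right-only and 1 was left-only. No matching shares over the chromosome sites are given here, so these numbers cannot be called high or low. Some of the 26 sites also overlap each other, so they are not separate cases. The left-only site, scaffold107:689401-689409, had 22 counts in 10 plants. Among private sites read at 1 border, each plant counted as 1 value, 47.8% ± 9.20 (SD, n = 17) were left-border on scaffolds and 49.9% ± 0.195 on chromosomes. That difference of -2.08 ± 9.26 points did not exceed the spread between plants (sign-flip permutation test, p = 0.380, lower in 12 of 17). Without scaffold107 it was 1.84 points.

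**Figure D3:**
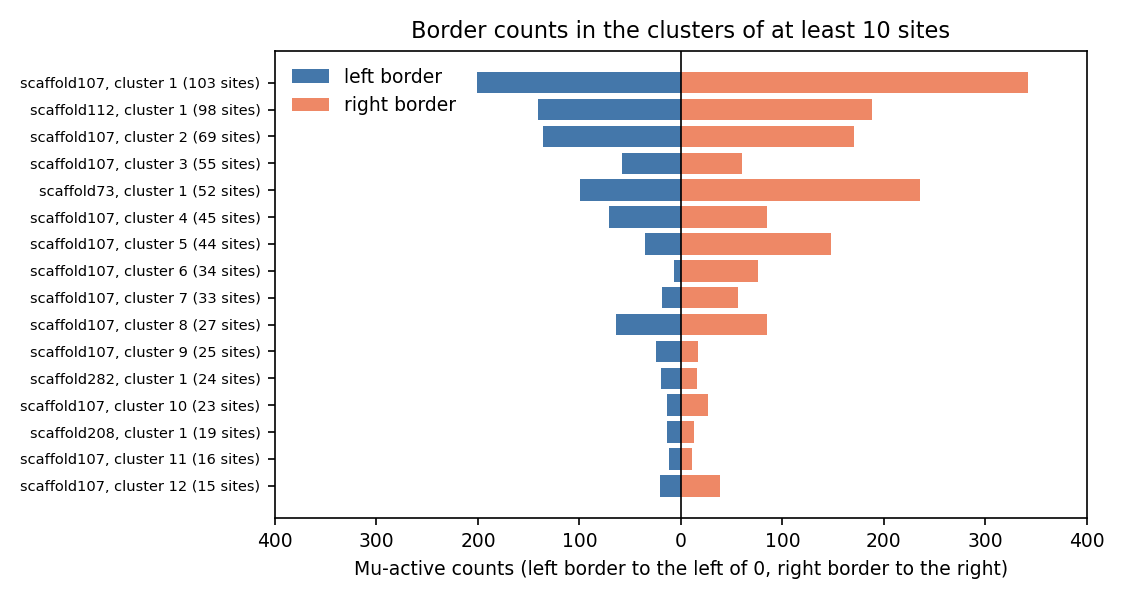
Mu-active counts at the left border (bars to the left of 0) and right border (bars to the right) in each of the 16 clusters of at least 10 sites, numbered within a scaffold by number of sites. Right counts exceed left counts in 12 clusters, and scaffold107 cluster 6, with 34 sites, has 7 left and 76 right counts.

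The most uneven cluster was scaffold107:295477-296530, chosen for description after its values were seen. Its 34 sites had 7 left and 76 right counts (8.43% left) in 15 plants. None was read at both borders, 25 were right-only and 7 left-only in undiluted Mu-active libraries. Right counts exceeded left counts in 14 plants, up to 17 against 1 in plant 79, and plant 65 had 1 left count only. Chromosome windows of 1000 bp with 20 to 60 sites had a median of 50% left (5th to 95th percentile 34.4% to 65.3%), and 63 of 25741 (0.245%) were at or below 8.43%. A total of 97 such windows (0.377%) had no site read at both borders. The cluster at scaffold107:1114863-1116679 was at 19.1% left (35 and 148 counts) and the one at scaffold107:717435-718441 at 25.3% (19 and 56). Right exceeded left in 12 of 16 clusters, 1 of them the scaffold73 cluster, which stood at 53.2% left without its site of 149 counts. In scaffold107:697655-698252 left exceeded right by 25 to 17.

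Whether a site was read at both borders was compared next. Over all Mu-active libraries, 40.9% of scaffold sites with at least 2 counts had both borders, against 57.2% of chromosome sites. At 5 or more counts the shares were 65.5% and 86.9%, and at 10 or more 76.5% and 94.3%. These classes have no upper limit, and Mu-active counts averaged 3.08 per scaffold site and 21.0 per chromosome site. The shares are therefore not matched for counts. Within plants, private sites of at least 2 counts had both borders at 30.0% ± 20.6 (SD, n = 8 plants) on scaffolds and 38.7% ± 10.9 on chromosomes. The difference, -8.73 ± 17.5 points and lower in 5 of 8 plants, did not exceed the spread between plants (exact sign-flip permutation test, p = 0.211). These 8 plants were those with at least 10 such scaffold sites. With no minimum the difference was -9.11 points over 17 plants (permutation p = 0.0481). Among private sites of exactly 2 counts it was -7.20 points over 3 plants, too few for the test to pass (exact sign-flip permutation test, p = 0.5).

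Technical library pairs, split after shearing, gave the redetection of scaffold sites. Of 11 scaffold sites with at least 2 counts in the first leaf 74 library, 4 (36.4%) were read in its second library, against 48.3% of chromosome sites. For leaf 75 it was 4 of 16, against 48.2%. The pollen 79 and Mu-inactive leaf 3 pairs had no scaffold site of 2 counts to compare.

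Mu-inactive leaf, the plants without Mu activity, served as the control, and what its readings stem from was not tested. It had 18 scaffold sites in plant 1, 22 in plant 2, 3 in the first library of plant 3 and 1 in the second, with 23, 22, 3 and 1 counts. These were 43 different sites on 28 scaffolds, 39 of them with a single count, and no site had over 4 counts in a library or was read at both borders in one. No scaffold site was read in all 4 Mu-inactive libraries. Of the scaffold sites read in undiluted libraries, 4.20% had a Mu-inactive count, against 0.557% of all sites.

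The Mu-inactive sites were spread over the scaffolds. Of them, 9 of 43 (20.9%) were on scaffold107, against 548 of 982 (55.8%), while scaffold15 held 6, and 2 of 43 (4.65%) fell in the clusters. The clusters were drawn from all scaffold sites, most of them read in Mu-active plants. That last share therefore does not compare the 2 kinds of plant on equal terms. The Mu-inactive sites gave 22 left-border and 22 right-border readings. One site was read in both kinds of plant: scaffold107:145439-145447, inside a cluster, with 1 or more counts in Mu-inactive plants 1 and 3 (2 counts in all) and 12 counts in 5 Mu-active plants. The other 42 had no count in an undiluted Mu-active library.

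A site within 100 bp in some other Mu-active plant was present for 83.5% ± 5.65 (SD, n = 6 plants) of leaf scaffold sites, from 78.6% to 92.3%, and for 93.7% ± 0.509 of leaf chromosome sites. For Mu-inactive leaf it was 15.4% ± 10.3 (SD, n = 3 plants; 5 of 44 sites) on scaffolds and 18.3% ± 5.24 on chromosomes. This measure was chosen after the data were seen and was not tested.

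The share of counts on scaffolds was higher in Mu-active leaf. It was 0.00669%, 0.00414%, 0.00610%, 0.00702%, 0.0101% and 0.00860% in leaves 74, 75, 76, 78, 79 and 83. In Mu-inactive plants 1, 2 and 3 it was 0.000927%, 0.000876% and 0.000117%, below every Mu-active leaf. The mean was 0.00710% ± 0.00205 (SD, n = 6) against 0.000640% ± 0.000454 (SD, n = 3), a difference of 3.91 on the log2 scale (exact two-sided permutation test, p = 0.0238, the smallest that 6 against 3 plants allow). The share of distinct sites went the other way, 0.0398% ± 0.00554 (SD, n = 6) against 0.333% ± 0.0994 (SD, n = 3), a log2 difference of -3.03 with no overlap (exact two-sided permutation test, p = 0.0238). Most of these Mu-inactive scaffold sites, 39 of 43, had 1 count. With at least 2 counts per site, Mu-inactive plant 1 had 3 scaffold sites among 633 sites (0.474%). That was above the 0.0305% to 0.0449% of the 6 Mu-active leaves. Plants 2 and 3 had none among 615 and 148, too few sites to show a share as low as that of the leaves. Whether the higher share depends on sites of 1 count therefore cannot be told. Distinct sites numbered 76076 to 249836 per Mu-active leaf and 1709 to 5445 per Mu-inactive plant, so 26 to 103 scaffold sites stood against 4 to 22. The share of counts has a denominator dominated by a few chromosome sites. The reference level was 8618 to 23714 in Mu-active and 50220.5 to 80688 in Mu-inactive leaf libraries. No matching share for other regions is given, so the higher share of counts is not shown to be particular to scaffolds.

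**Figure D4:**
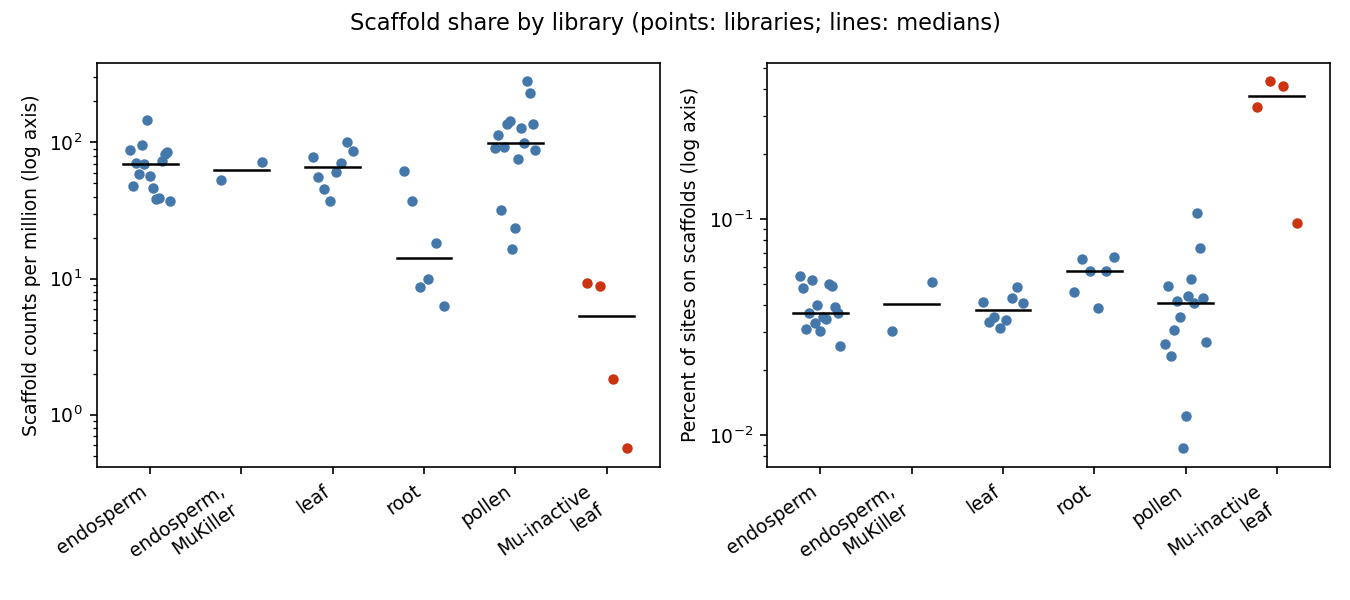
Scaffold counts in CPM, scaled to the total counts of the library (left panel), and percent of a library's distinct sites that lie on scaffolds (right panel), both on log axes, for each undiluted library (points) with the group median (lines). The 4 Mu-inactive leaf libraries lie lowest among the leaf libraries in the left panel, from 0.565 to 9.27 CPM against 37.4 to 100.7, and 3 of the 4 lie above every other library in the right panel.

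By tissue, 564 scaffold sites were read in endosperm, the MuKiller-labelled ones included, 370 in leaf, 68 in root and 165 in pollen, with 1442, 699, 356 and 527 counts. Scaffold107 held 61.2%, 57.6%, 58.8% and 57.0% of them. In all, 138 sites were in 2 or more tissues and 6 in all 4, with no matching share over the chromosome sites given here. Scaffold CPM had a median of 68.9 among endosperm libraries (36.9 to 146), 65.6 among leaf libraries (37.4 to 101), 14.1 among roots (6.30 to 61.4) and 98.5 among pollen libraries (16.6 to 281). The pollen median and both ends of its range rest on 1 or 2 scaffold counts. The median is the first pollen 79 library (1 count, 95% exact Poisson interval 2.49 to 549 CPM). The ends are pollen 74 (1 count) and the second pollen 79 library (2 counts). Root 61 set the top of the root range, and without its single site of 142 counts it was at 22.5. Root 75, at 6.30 CPM (4 counts), and root 65, at 8.70 (6 counts), lay below the highest Mu-inactive leaf library, at 9.27. Scaffold CPM therefore did not separate every Mu-active root library from Mu-inactive leaf. The 2 MuKiller-labelled endosperms had 53.1 and 71.7 CPM, inside the range of the other endosperms.

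Among private sites, the share on scaffolds averaged 0.0533% ± 0.0164 over 15 endosperms and 0.0447% ± 0.0132 over 6 leaves (each ± is the SD over plants). It averaged 0.0776% ± 0.0529 over 6 roots and 0.0435% ± 0.0215 over 14 pollen samples. Root 65 and pollen 78 had no private scaffold site among 3453 and 2202 private sites. Leaves ranged from 0.0215% to 0.0605% and roots from 0 to 0.133%, so the tissues overlapped. No pair of the 4 tissues differed beyond the spread between plants (permutation tests, exact where a group had under 10 plants, Benjamini-Hochberg adjusted p over 6 pairs from 0.266 to 0.922). The lowest unadjusted p was 0.0577, for root minus pollen (0.0341 percentage points, exact permutation test). By counts the shares were 0.0361% ± 0.0134, 0.0310% ± 0.00920, 0.0375% ± 0.0377 and 0.0321% ± 0.0258 in the same order, and all 6 adjusted p-values were 0.943 (permutation tests, exact where a group had under 10 plants). The root values rest on 43 private scaffold sites in all.

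Few private sites were shared between tissues of the same plant, on scaffolds (2 of 814, 0.246%) or on chromosomes (8531 of 1623101, 0.526%). The shared scaffold sites were 1 in plant 52 and 1 in plant 79. With 2 sites the lower share does not set the scaffolds apart, and no test was made. The plants differed in the number of scaffold sites they gave, from 25 in plant 105 to 158 in plant 79, with a median of 69.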

How the data were processed

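The deposited values are whole-number counts of Mu junction reads per insertion site in 56 libraries, in 3 tables (both borders, left, right). Bowtie2 is named in the submitters' processing notes, with no version. The assembly, insertion caller and read filters are unnamed in the sources used here. The combined count equalled left plus right at every scaffold site. Coordinates are those of the deposited counts, and no sequence or gene annotation was joined to them.

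Libraries of a plant were summed and the plant was the replicate. As depth reference served the library's median at 28 sites that reached 10 counts in each of the 50 undiluted libraries. Tissue means of percentages were tested by two-sided permutation (exact under 10 plants, else 100000 permutations), adjusted by Benjamini-Hochberg over 6 pairs. Mu-active and Mu-inactive leaf were compared on log2 percentages, and scaffold and chromosome shares within plants by sign flips. Same-numbered tissues come from the same plant, per the labels, so tissue pairs were also tested with the plant as a block. Intervals are 95% exact Poisson or binomial. Named features were the 5 scaffolds with the most sites, the 8 sites of highest Mu-active total, and per tissue up to 2 private sites with at least 10 counts and both borders. Others were named after their values were seen. The members, lists and tests were chosen with earlier results of these data known. Alternatives covered count minimums, both borders, depth, technical libraries, scaffold107, single tissues and leaving out plants. On simulated data, 96% of 200 leaf-root sets with a 3-fold higher private-site share in leaf were called and 6.5% without a difference. Those sets held counting error only, with no spread between plants, and were called at unadjusted p. The 96% therefore does not carry over to the tissue tests here, which were adjusted and whose roots varied more between plants. Python 3.11.15, numpy 2.4.6, pandas 2.3.3, scipy 1.17.1 and matplotlib 3.10.9 were used.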

Additional observations from a re-analysis of the deposited data

Results flagged for a closer look

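Diluted libraries were used in no comparison. In 3 of the 6, scaffold counts were above the highest Mu-inactive library (9.27 CPM, scaled to the library total): 73.6 CPM for leaf 79 diluted 1 part in 3, 49.4 for leaf 83 diluted 1 part in 3, and 23.9 for leaf 79 diluted 1 part in 10. The undiluted leaves 79 and 83 were at 100.7 and 86.0 CPM. The remaining 3 diluted libraries ran from 6.74 to 9.00.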

How the results depend on the processing

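Of the 6 tissue pairs, none passed the threshold by sites or counts in any setting kept to private sites. Several reversed around differences near 0, in percentage points and minus as named. By private sites, a minimum of 2 counts gave endosperm-leaf -0.0174, endosperm-pollen -0.0185 and leaf-pollen -0.00114. A minimum of 5 counts gave leaf-pollen -0.00619, both borders gave endosperm-pollen -0.0532 and leaf-pollen -0.0621, first technical libraries gave leaf-pollen -0.00138, and leaving out scaffold107 gave it -0.000589. By private counts, a minimum of 2 counts gave endosperm-leaf -0.00175 and endosperm-pollen -0.00838, a minimum of 5 counts gave endosperm-pollen -0.00138, and both borders gave endosperm-pollen -0.0177 and root-pollen -0.00442. Libraries of at least 50000 counts gave leaf-pollen 0.00403, and leaving out scaffold107 gave endosperm-leaf -0.00226 and endosperm-pollen -0.00618.

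Counting all sites, not private ones alone, took some pairs past the threshold. By sites, endosperm-leaf was -7.01e-05 and endosperm-root -0.0155 (permutation test, adjusted p = 0.0303). By counts, endosperm-leaf was -0.000214, endosperm-root 0.00452 (adjusted p = 0.00635), endosperm-pollen -0.00369, leaf-root 0.00474 (adjusted p = 0.0130) and root-pollen -0.00822 (adjusted p = 0.00635), by permutation tests. The scaffold values and the denominator then hold sites shared by plants, which makes the plants dependent. These tests treat plants as independent, so their p-values are not read as differences between tissues. The cause was not tested.

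With the plant as a replicate block, private-site differences were 0.0143 for endosperm-leaf, -0.0277 for endosperm-root, 0.00876 for endosperm-pollen, -0.0857 for leaf-root, 0.00235 for leaf-pollen and 0.0633 for root-pollen, over 5, 4, 13, 2, 6 and 3 plants. By counts, endosperm-root turned to 0.00928. The block changed no call. Sign flips over 2 to 6 plants cannot pass after adjustment over the 6 pairs, so only endosperm-pollen, with 13 plants, could have been called.

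Leaving out 1 plant gave Mu-active minus Mu-inactive leaf log2 differences of 2.92 to 4.42 by counts and -3.26 to -2.81 by sites. With 2 Mu-inactive plants the smallest exact p is 0.0714, so the call could not be kept. At a minimum of 2 counts, with the 2 Mu-inactive plants at 0 set to 1 count, the differences were 5.78 by counts and -3.26 by sites, and the latter holds only through that substitution. At 10 counts every Mu-inactive plant was at 0 and no value was computed.

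For both borders, no minimum of sites gave -9.11 (permutation p = 0.0481) and a minimum of 1 count -4.49 (permutation p = 0.00726, lower in 15 of 17). The left-border share was 1.84 without scaffold107. The share with at least 2 counts was -10.1 without scaffold107, past the threshold. It was -2.58 in leaf alone and -4.37 in pollen alone, not past the threshold, -1.27 at 5 counts and 0.278 at 10. Too few scaffold sites remained for both borders in root or pollen alone or at 5 or 10 counts, and for the other shares in root alone. In the shallowest library, the second of pollen 79, 3 counts (the limit that a count of 0 allows) came to 421 CPM, above the scaffold CPM of every undiluted library, the highest being 281.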
